A study of Xenopus laevis with 6 samples.

Results

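The genes described here are 72 genes of the secretory pathway and the endoplasmic reticulum (ER), out of 7531 genes that the arrays measured under a single symbol. They were taken by name: xbp1, hspa5, calr and canx, and every symbol made of pdia, sec, ssr, spcs, srp, dnajb, dnajc or tmed followed by a digit. Xenopus laevis has a duplicated genome, and the long-chromosome (.L) and short-chromosome (.S) copies counted as separate genes. Where a gene had several probe sets, the one with the highest mean over the 6 arrays stood for it. xbp1 was put in the list with its low level under Sox17beta already known, so its value is a starting point and the other 71 genes are what the description turns on.

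RNA came from animal caps, explants of the ectoderm of the Xenopus embryo, at gastrula stage 10.5 and of mixed sex. The tested caps came from embryos injected with Sox17beta, an HMG-box transcription factor, or with Mixer, a homeodomain transcription factor, which are both endoderm regulators. Uninjected caps were the control for both factors, so the differences of the factors from that control share the same 2 arrays and are not independent. Each of the 3 groups had 2 arrays, and the labels name no separate clutches, so each p-value speaks only of how far these arrays spread, and that spread may be technical.

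Proteins that leave the cell or enter its membranes are caught by the signal recognition particle as they are made, threaded through the Sec61 translocon into the ER, cleaved by signal peptidase, folded by chaperones and disulfide isomerases, and carried to the Golgi in COPII vesicles. When unfolded protein builds up in the ER, the unfolded protein response raises the folding and export machinery, and Xbp1 is a transcription factor of that response that also drives secretory capacity in gland and plasma cells. The epidermis of the frog embryo secretes mucus, and the animal cap is its precursor. The roles given below are those known from work in yeast and mammals.

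The values are log2 expression values, on which a difference of 1 is a doubling of signal. Array medians ran from 6.49 to 6.54. Sox17beta replicate 1 stood apart: 48.5% of its probe sets exceeded the brightest of 44 control probe sets for transcripts that frog RNA lacks, against 57.8% to 60.7% on the other arrays. Of the 72 genes, 58 exceeded that control on all 6 arrays and 7 were below it on both arrays of every group. The median gene of the list lay at the 77.3rd percentile of all tested probe sets by mean level, so the list is mostly of well expressed genes. The arrays numbered 2 read these genes higher than those numbered 1 by a median of 0.12 in Sox17beta caps, 0.285 in Mixer caps and 0.205 in uninjected caps. Over all tested probe sets these medians were -0.05, -0.05 and 0.01, so the shift was not one of whole arrays.

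The low xbp1 level in Sox17beta caps was not matched by a change of similar size across the secretory genes. The median difference of the 72 genes between Sox17beta and uninjected caps was -0.115 on the log2 scale, beside 0.04 over all 15491 tested probe sets, and 65 of the 72 genes differed by less than 0.5. Such small differences were given by 91% of all probe sets. Without xbp1 the median was again -0.115. Without Sox17beta replicate 1 it was -0.04, or -0.155 in a fit that lets arrays of one replicate number share a shift (the replicate block). Without uninjected replicate 2 it was 0.015, or -0.11 with that block. Small differences below 0 were common: 47 of the 72 genes were lower in Sox17beta caps, 24 were higher and 1 was level. Over all probe sets 40.4% were lower and 58.6% higher. In both replicate pairs 41 of the 72 were lower, where 25% of all probe sets were. In these bulk samples, fewer cells of a type and less RNA per cell cannot be told apart.

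**Figure D1:**
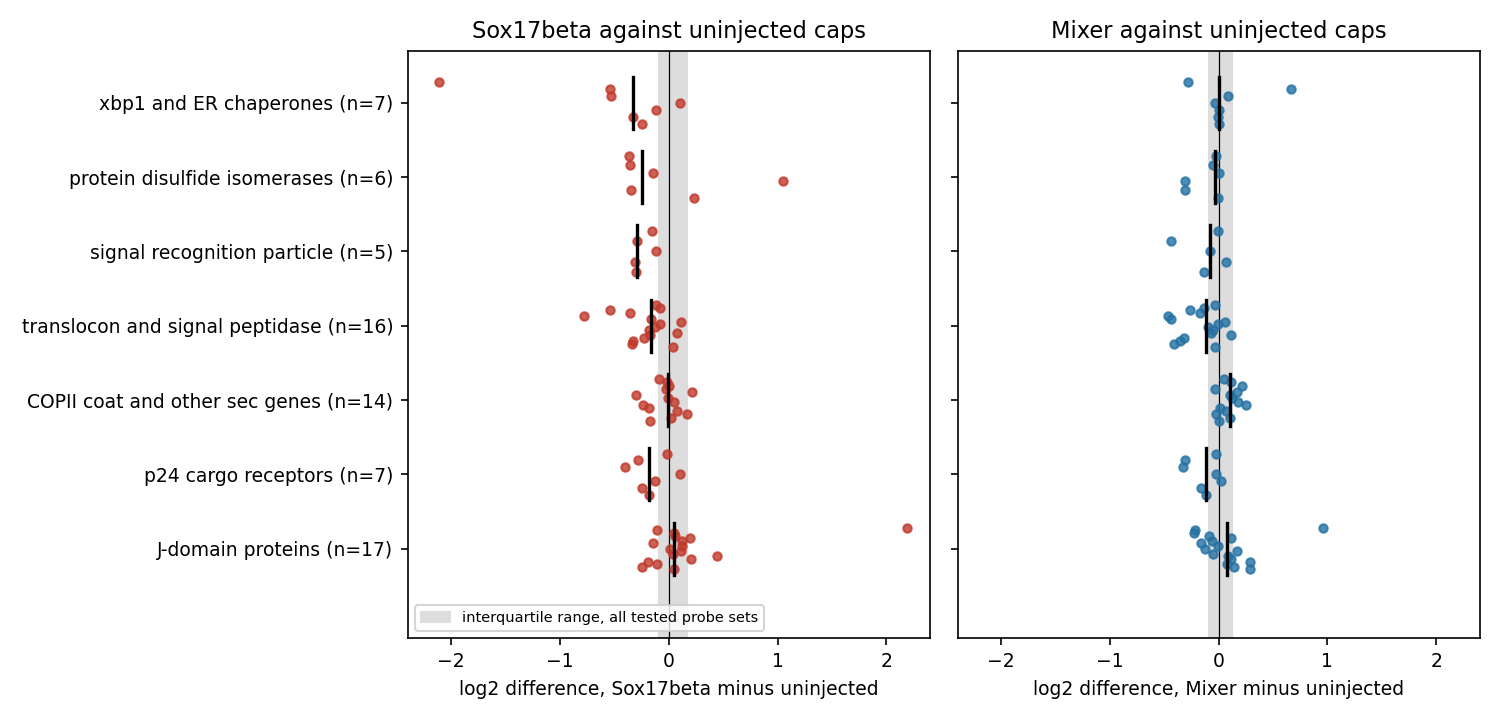
Log2 difference of each of the 72 genes by role, for Sox17beta minus uninjected caps (left panel, red) and Mixer minus uninjected caps (right panel, blue). Each point is a gene, black bars are role medians, and the grey band is the interquartile range of all tested probe sets. With Sox17beta the medians of xbp1 with the chaperones, and of the isomerase, signal recognition particle, translocon and p24 genes, lie between -0.33 and -0.17, and xbp1.L, at -2.11, is far to the left of the other genes.

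Calls were made with limma over all probe sets. The fit without the replicate block was planned as the main one, and the fit with it was an alternative. The alternative is given first. The blocked fit called 3 of the 72 genes between Sox17beta and uninjected caps at an adjusted p under 0.05, where 5.45% of all probe sets were called. These were xbp1.L, which was lower, as 3.56% of all probe sets were, and pdia4.L and dnajc9.L, which were higher, as 1.88% were. The call of xbp1.L is no separate support, since its low level was known when it was listed. Of the other 71 genes, 0 were called lower and 2 higher in this fit. Without the block limma called 0 of the 72 genes, where 0.0194% of all probe sets were called, and 3 of the 72 had an unadjusted p under 0.05, where 6.26% of probe sets did. The Sox17beta and uninjected values did not overlap for 14 genes that were lower, where 10.4% of probe sets did so, and for 4 genes that were higher, where 20% did. Leaving out xbp1.L, 13 lower genes remained.

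xbp1.L had log2 values of 8.15 and 7.32 in Sox17beta caps, 9.36 and 9.76 in Mixer caps, and 9.68 and 10.01 in uninjected caps. Both Sox17beta arrays lay below every other array, while the Mixer and uninjected values overlapped. The difference was -2.11 between Sox17beta and uninjected caps (95% interval -2.96 to -1.26 without the replicate block), a 4.32-fold lower signal. limma's adjusted p for it was 0.196 without the replicate block and 0.00922 with it. The difference was -1.53 in the first replicate pair and -2.69 in the second. Between Mixer and uninjected caps it was -0.285 (95% interval -1.13 to 0.56, limma adjusted p = 1, both without the block). Without Sox17beta replicate 1 the blocked difference was -2.71 with a limma adjusted p of 0.0184, and without any other single array the blocked adjusted p lay between 0.0957 and 0.365. Each fit without 1 array leaves a group with a lone array, which is assumed to vary like the other groups. Such a p rests on the spread of the others, here and for the genes below. Over all probe sets, too, these fits called few or none for Sox17beta minus uninjected, except without Sox17beta replicate 1.

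None of the 6 ER chaperone genes passed the test, and their median difference was -0.29 with Sox17beta. hspa5 encodes BiP, the Hsp70 of the ER lumen and a standard read-out of the unfolded protein response. hspa5.L had 7.46 and 6.60 in Sox17beta caps, 7.86 and 7.45 in Mixer caps, and 7.58 and 7.55 in uninjected caps. hspa5.S had 7.73 and 7.06 in Sox17beta caps, 8.28 and 8.93 in Mixer caps, and 7.81 and 8.07 in uninjected caps. In both copies the Sox17beta values lay below the uninjected ones, and nearly all of the gap came from the second replicate pair. For hspa5.L the difference was -0.12 in the first pair and -0.95 in the second, and for hspa5.S it was -0.08 and -1.01. The differences of the means were -0.535 for hspa5.L (blocked 95% interval -0.99 to -0.08, blocked limma adjusted p = 0.198) and -0.545 for hspa5.S (blocked 95% interval -1.21 to 0.12, blocked limma adjusted p = 0.366). Without the block the 95% intervals were -1.36 to 0.29 for hspa5.L and -1.39 to 0.30 for hspa5.S. A probe set shared by both copies, left out of the list because it carries 2 symbols, gave -0.79 with a blocked limma adjusted p of 0.177.

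hspa5.S was the chaperone that differed most between the injected groups. Its Mixer values were the highest of the 6 arrays, 0.665 above the uninjected mean, and its Sox17beta mean was 1.21 below its Mixer mean (-1.21, 95% interval -2.05 to -0.37 without the block). The limma adjusted p of this last difference was 0.853 without the block and 0.108 with it, so it did not pass either way.

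calr and canx encode calreticulin and calnexin, lectin chaperones that hold newly glycosylated proteins. calr.S had 8.86 and 8.60 in Sox17beta caps, 9.01 and 9.09 in Mixer caps, and 9.02 and 9.10 in uninjected caps. Both Sox17beta arrays of calr.S were the lowest of the 6, by a mean of 0.33 against uninjected caps (-0.33, blocked limma adjusted p = 0.239). calr.L, the more strongly read copy, had 9.95 and 10.12 in Sox17beta caps, 10.06 and 10.51 in Mixer caps, and 10.12 and 10.44 in uninjected caps, with groups that touched or overlapped and a difference of -0.245. The canx copies differed by -0.115 for canx.L and 0.10 for canx.S with Sox17beta, with overlapping groups. The other 2 probe sets of canx.L gave -0.31 and -0.30 with Sox17beta, and -0.30 and -0.265 with Mixer where the chosen one gave 0. Over xbp1 and the 6 chaperone genes the median difference was -0.33 with Sox17beta and 0 with Mixer.

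**Figure D2:**
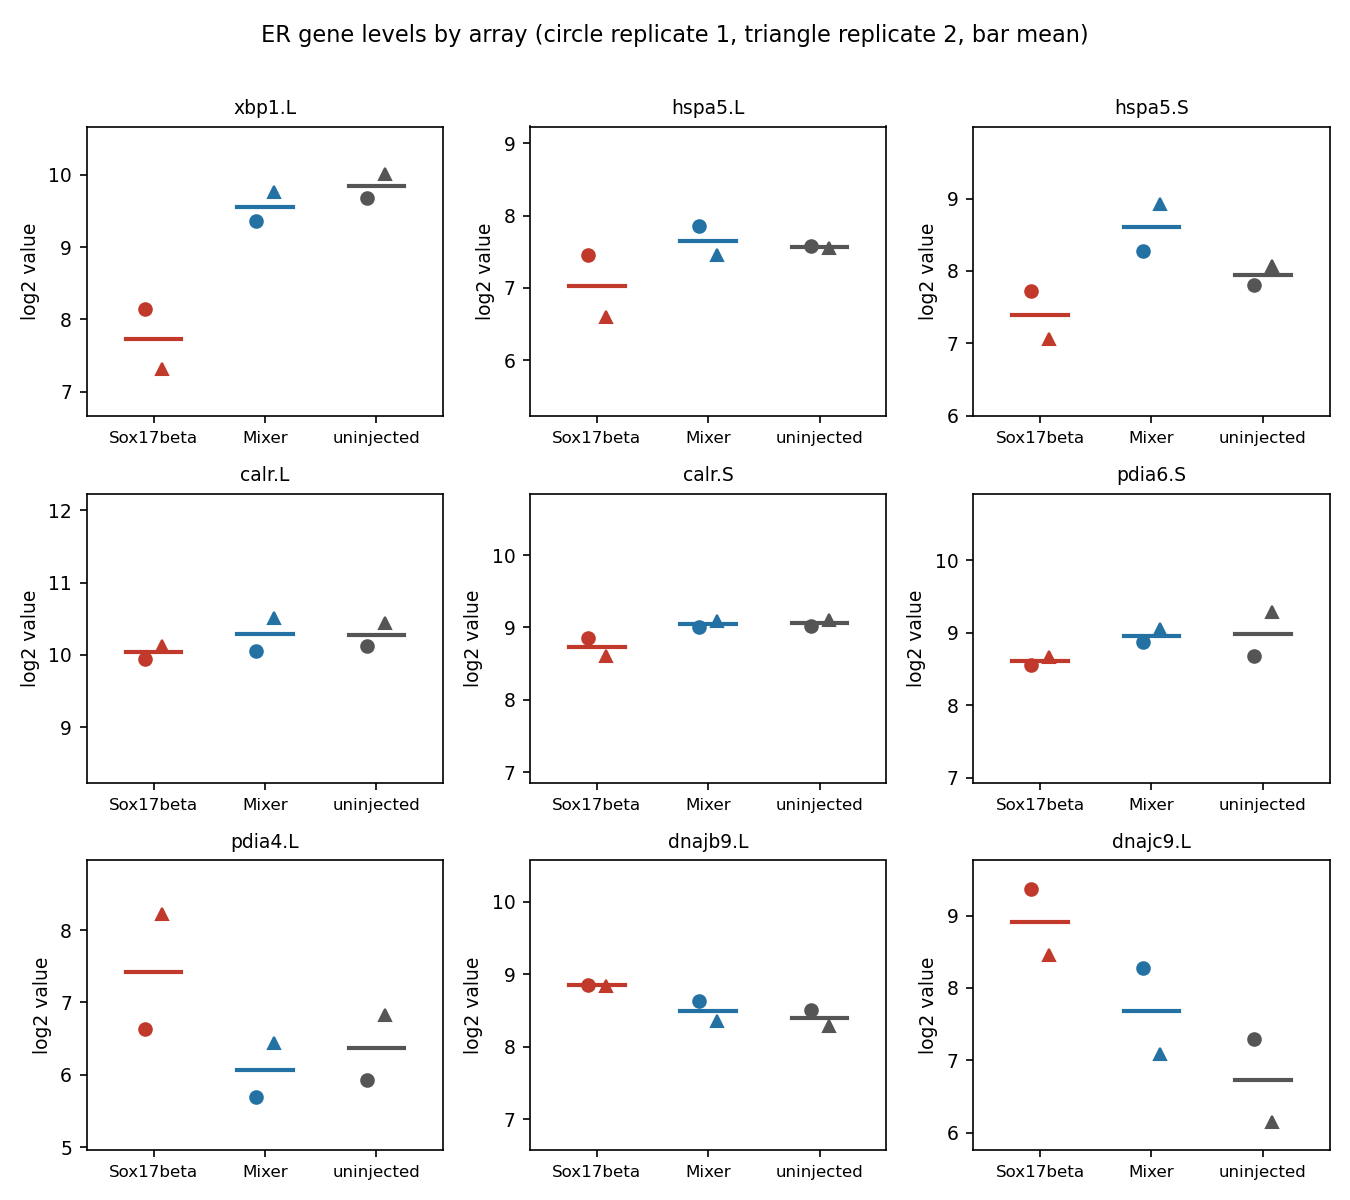
Log2 value on each array for 9 genes, with Sox17beta, Mixer and uninjected caps from left to right. Circles are replicate 1, triangles replicate 2, and bars group means. The vertical scale spans the same log2 range in every panel, around a centre that differs between panels. xbp1.L is low on both Sox17beta arrays, hspa5 is low mainly on Sox17beta replicate 2, and pdia4.L and dnajc9.L are higher with Sox17beta within each replicate number.

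The protein disulfide isomerases, which form and rearrange disulfide bonds in the ER, divided. pdia4.L, encoding the isomerase also called ERp72, had 6.63 and 8.22 in Sox17beta caps, 5.70 and 6.44 in Mixer caps, and 5.93 and 6.82 in uninjected caps. Within each replicate number the Sox17beta array was the highest of the 3, but the Sox17beta and uninjected ranges overlapped because the arrays numbered 2 read this gene higher. It rose with Sox17beta in the blocked fit by 1.05 (blocked 95% interval 0.57 to 1.53, limma adjusted p = 0.0315). Without the block its 95% interval was -0.57 to 2.67 and its limma adjusted p was 1. Its replicate 1 values were dim, since the brightest absent-transcript control read 6.62, 5.99 and 5.90 on the Sox17beta, Mixer and uninjected arrays of that number. Without Sox17beta replicate 1 the blocked difference was 1.44 (limma adjusted p = 0.0287), and without any other single array the blocked adjusted p lay between 0.189 and 0.459.

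Both directions occurred in this family, because both copies of pdia6, an isomerase that works beside BiP, read lower. pdia6.L had 8.58 and 8.47 in Sox17beta caps, 8.78 and 8.89 in Mixer caps, and 8.73 and 9.04 in uninjected caps. pdia6.S had 8.56 and 8.67 in Sox17beta caps, 8.87 and 9.05 in Mixer caps, and 8.68 and 9.29 in uninjected caps. Neither copy's Sox17beta values overlapped the other groups, and the differences against uninjected caps were -0.36 and -0.37, with blocked limma adjusted p-values of 0.211 and 0.249. pdia3.S, the partner of calreticulin and calnexin, differed by -0.35 with overlapping groups. pdia5.L differed by -0.15, and its 2 other probe sets by 0.16 and 0.115. pdia2.L was 0.23 higher in Sox17beta caps but below the absent-transcript control on all 6 arrays.

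All 5 genes of the signal recognition particle read lower in Sox17beta than in uninjected caps in both replicate pairs, by small amounts, where 25% of all probe sets did. The differences ran from -0.315 to -0.115 with a median of -0.295, and none passed the test. srp54.S, the GTPase that binds the signal sequence, had 9.28 and 9.22 in Sox17beta caps, 9.41 and 9.85 in Mixer caps, and 9.34 and 9.79 in uninjected caps. Both of its Sox17beta arrays were the lowest of the 6, but its other 2 probe sets gave -0.125 and -0.005 in place of -0.315. srp19.L, which helps assemble the particle on its RNA, had 7.56 and 7.30 in Sox17beta caps, 7.54 and 7.66 in Mixer caps, and 7.65 and 7.81 in uninjected caps. Its difference was -0.30, and its second probe set gave -0.82. srp72.S was the one gene of the particle whose Mixer values, 7.25 and 7.85, also lay apart from the uninjected values, 7.93 and 8.05, at a difference of -0.44 (blocked limma adjusted p = 0.249). The difference for Sox17beta was -0.295.

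Of the 16 genes of the translocon and the signal peptidase, 13 were lower in both replicate pairs with Sox17beta and 10 with Mixer, where 25% and 24.9% of all probe sets were. In either comparison 0 passed the test, with or without the block. The blocked fit called 5.45% and 1.31% of all probe sets. The median difference was -0.17 with Sox17beta and -0.115 with Mixer. The largest was in ssr2.S, a subunit of the translocon-associated protein complex that sits beside Sec61. ssr2.S had 9.50 and 9.16 in Sox17beta caps, 9.44 and 9.85 in Mixer caps, and 9.75 and 10.47 in uninjected caps. The Sox17beta values were below both uninjected values and overlapped the Mixer values. The difference against uninjected caps was -0.78 (blocked 95% interval -1.33 to -0.23, blocked limma adjusted p = 0.133), of which -0.25 was seen in the first pair and -1.31 in the second. Without the block the 95% interval was -1.57 to 0.0057. The ssr3 copies, of another subunit of this complex, were also lower, ssr3.L at -0.355 and ssr3.S at -0.545, but ssr3.S was under the absent-transcript control on all arrays.

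The 3 Sec61 subunits, which form the channel itself, differed about as much with either factor. Both differences subtract the same uninjected arrays, so they are not separate observations. sec61a1.S differed by -0.34 with Sox17beta and -0.41 with Mixer, sec61b.L by -0.33 and -0.355, and sec61g.L by -0.225 and -0.32. All 3 had overlapping groups, and each read higher on the array numbered 2 in every group. Sec62 and Sec63, which help post-translational import, differed by -0.17 for sec62.S, -0.185 for sec63.S and 0.075 for sec63.L with Sox17beta. The signal peptidase genes differed by -0.13 to 0.115 with Sox17beta. sec11a.L, a catalytic subunit, differed by 0.04. The highest was spcs3.L, which had 10.14 and 10.01 in Sox17beta caps, 10.03 and 10.01 in Mixer caps, and 10 and 9.92 in uninjected caps.

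Genes of the COPII coat, which carries cargo out of the ER, lay close to 0. Over 14 genes of the COPII coat and other sec genes the median difference was -0.01 with Sox17beta and 0.10 with Mixer. sec23b.L, an inner coat subunit, had 8.74 and 8.39 in Sox17beta caps, 8.90 and 9.03 in Mixer caps, and 8.76 and 8.97 in uninjected caps. Its Sox17beta values were the lowest of the 6, and differed from the uninjected ones by -0.02 in the first pair and -0.58 in the second. The other coat and exit-site genes (sec13.S, sec24a.S, sec24c.S, sec31b.L, sec31b.S, sec16a.L, sec16a.S and sec23ip.S) lay between -0.175 and 0.215 with Sox17beta. The highest was sec23ip.S, at -0.04 in the first pair and 0.47 in the second. With Mixer the members whose groups did not overlap were higher: sec22b.L and sec22b.S, copies of a vesicle SNARE, by 0.18 and 0.125, and sec24c.S by 0.215, and 0 passed the test. sec22b.S and sec24c.S were below the absent-transcript control on all arrays. sec14l1.L, a lipid-binding protein that only shares the sec name, differed by 0.015 with Sox17beta.

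The 7 p24 genes encode cargo receptors of ER and Golgi vesicles, and 5 of them were lower in both replicate pairs with Sox17beta, where 25% of all probe sets were. tmed7.L had 8.75 and 8.81 in Sox17beta caps, 8.59 and 8.91 in Mixer caps, and 8.90 and 9.22 in uninjected caps. Its Sox17beta values were below both uninjected values, by a mean of 0.28 (-0.28), and the Mixer difference was -0.31 with overlapping groups. tmed5.L differed by -0.40 and -0.325, and tmed2.L, with 5 probe sets, by -0.25 and -0.165, with Sox17beta first in each case. The other 4 probe sets of tmed2.L gave -0.375 to -0.125 with Sox17beta.

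J-domain proteins, which switch on Hsp70 chaperones, form the largest role with 17 genes, and many of them work outside the secretory pathway. Their median difference was 0.05 with Sox17beta and 0.08 with Mixer. The one that passed, and only in the blocked fit, was dnajc9.L, whose human counterpart is a nuclear co-chaperone of histones. dnajc9.L had 9.37 and 8.45 in Sox17beta caps, 8.28 and 7.09 in Mixer caps, and 7.30 and 6.15 in uninjected caps. Within each replicate number it was highest with Sox17beta, intermediate with Mixer and lowest in uninjected caps. In the blocked fit it rose with Sox17beta by 2.185, a 4.55-fold higher signal (blocked 95% interval 1.90 to 2.47, limma adjusted p = 0.000852), and with Mixer by 0.96 (limma adjusted p = 0.022). Without the block the limma adjusted p-values were 0.501 and 1. Without Sox17beta replicate 1 the blocked Sox17beta difference was 2.31 (limma adjusted p = 0.0184), and without any other single array the adjusted p lay between 0.0957 and 0.258.

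Among the J-domain proteins of the ER, dnajb9.L had the largest difference, opposite in sign to that of xbp1. dnajb9 encodes ERdj4, a BiP co-chaperone known in mammals as a target of Xbp1. It had 8.85 and 8.84 in Sox17beta caps, 8.63 and 8.35 in Mixer caps, and 8.51 and 8.29 in uninjected caps. Both Sox17beta arrays were the highest of the 6, by a mean of 0.445 over uninjected caps (95% interval 0.02 to 0.87 without the block). The limma adjusted p was 0.757 without the block and 0.0929 with it. After quantile normalization of the arrays the blocked fit called it, making 4 genes of the list. The other ER members of known place differed by -0.25 for dnajb11.S, 0.05 for dnajb11.L, 0.19 for dnajc3.L, 0.035 for dnajc1.S, -0.11 for dnajb12.S and -0.195 for dnajb14.S. dnajb11.L was also 0.285 higher in Mixer than in uninjected caps, with groups that did not overlap, and dnajc1.S was 0.055 lower there (-0.055).

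Leaving out the J-domain genes and sec14l1, the 54 remaining genes had a median difference of -0.17 with Sox17beta and -0.02 with Mixer. This subset was not among the planned results. It drops 17 J-domain genes, of which 12 were higher with Sox17beta, where 58.6% of all probe sets were. Some of the dropped genes act in the ER, such as dnajb9.L and dnajc3.L, which were higher. With Sox17beta 42 of the 54 were below 0, where 40.4% of all probe sets were. Level and direction went together in the whole table, and the list is rich in bright probe sets. Among the 3873 brightest of all probe sets, with a mean level above 7.85, 57.8% were lower in Sox17beta than in uninjected caps and the median difference was -0.035. The 39 list members among them had a median of -0.185, and 82.1% of them were lower. After quantile normalization, which gives all arrays one distribution, the medians were -0.10 for these members and 0.04 for all of these bright probe sets. Members at lower levels showed little of this lean. Among the next 3872 probe sets by level 46.9% were lower, as were 50% of the 22 members there, whose median was -0.005. In the 3873 below those, 32.6% of probe sets and 2 of 7 members were lower. In the dimmest 3873, 24.5% of probe sets and 2 of 4 members were. Scaling did not turn the median of the 72 genes, which was -0.08 after quantile normalization and -0.135 with arrays centred on their medians, nor any of the 7 role medians with Sox17beta.

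**Figure D3:**
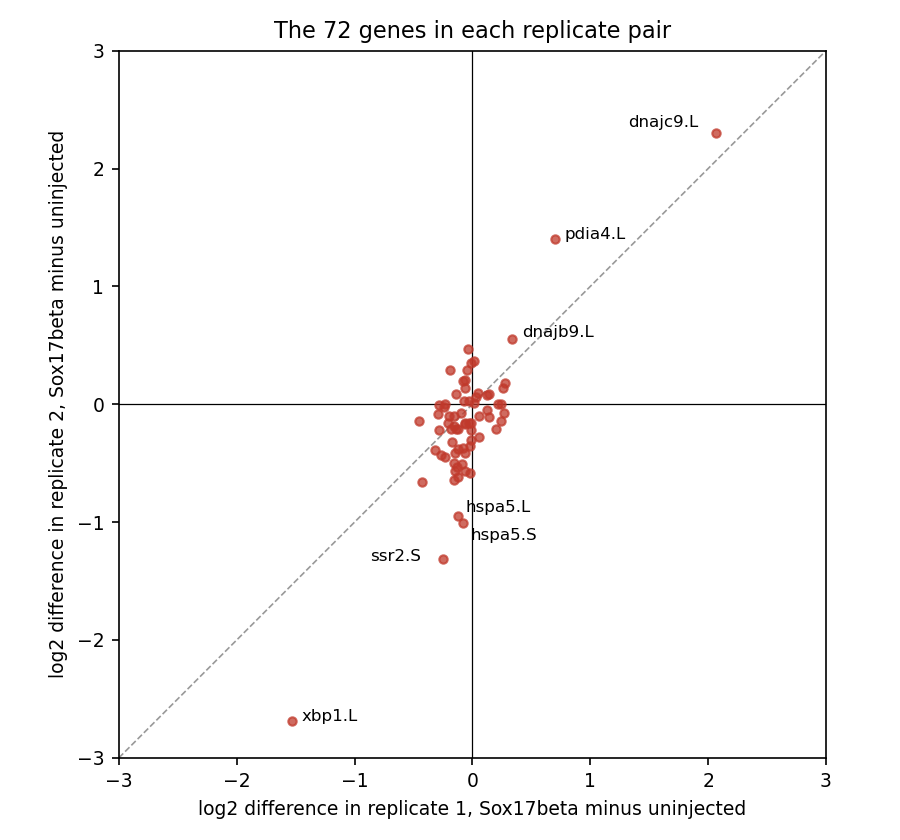
Log2 difference between Sox17beta and uninjected caps in the first replicate pair (horizontal axis) and the second (vertical axis), 1 point per gene of the 72. The dashed line marks equal differences. xbp1.L, dnajc9.L and pdia4.L are far from 0 in both pairs, while hspa5.L, hspa5.S and ssr2.S are far from 0 mainly in the second.

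Between Mixer and uninjected caps the differences of the list were small, and more of them lay below 0 than in the whole table. Of the 72 genes 42 were lower and 29 higher, where 43.2% of all probe sets were lower and 55.6% higher. This lean depended on scaling: 36 of the 72 were below 0 after quantile normalization, and 47 with arrays centred on their medians. The median difference was -0.02, beside 0.025 over all probe sets, and 70 of the 72 genes differed by less than 0.5, where 94.4% of all probe sets did. With the block limma called 1 of the 72 genes, where 1.31% of all probe sets were called. This was dnajc9.L, among the higher genes, where 0.536% of all probe sets were called higher, and 0 of the 72 were called lower, where 0.775% were. Without the block it called 0, where 0.0387% were called, and 0 of the 72 had an unadjusted p under 0.05, where 2.87% did. In both replicate pairs 25 of the 72 genes were lower and 15 higher. Of all 15491 probe sets 3851 (24.9%) were lower in both pairs and 5338 higher. Groups did not overlap for 6 higher genes and 2 lower genes, where 12.6% and 9.41% of probe sets did so. After dnajc9.L the largest differences were those of hspa5.S, at 0.665, ssr2.S, at -0.465, and srp72.S, at -0.44, and 0 of these 3 passed the test.

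The direct comparison of the injected groups shares its Sox17beta arrays with the comparison above. The median difference of Sox17beta minus Mixer was -0.07, beside 0.025 over all probe sets. With the block limma called 3 of the 72 genes, where 1.56% of all probe sets were called (1 lower, where 1% were, and 2 higher, where 0.555% were), and without it 0, where 0.0581% were called. The 1 lower gene was xbp1.L, and 0 of the other 71 genes were called lower. Without the block 2 of the 72 had an unadjusted p under 0.05, where 3.97% of probe sets did. Of the 72 genes, 67 differed by less than 0.5, where 94% of all probe sets did, and 31 were lower in both replicate pairs, where 25.9% were. xbp1.L was lower in Sox17beta caps by a difference of -1.825 (limma adjusted p = 0.0322 with the block and 0.502 without it). pdia4.L was 1.355 higher (limma adjusted p = 0.0293 with the block) and dnajc9.L 1.225 higher (limma adjusted p = 0.00719 with the block). Groups did not overlap for 12 lower and 7 higher genes, where 9.21% and 15.3% of probe sets did so. By role, the median of the 6 chaperone genes without xbp1 was -0.285 and the translocon median -0.005, which became 0.06 after quantile normalization.

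Both genome copies were measured for 13 of the genes. The copies are separate genes, and real differences between them were not told apart from measurement error. With Sox17beta the copies differed in their log2 difference by a median of 0.085 and at most 0.30, in dnajb11, and had the same sign in 8 of the 13 pairs. With Mixer the median gap was 0.065 and the largest, 0.575, was in hspa5. The hspa5 copies were 0.01 apart with Sox17beta, as were the pdia6 copies. Whether a probe set also reads the other copy was not tested.

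Of 166 further genes of the pathway in 7 lists, 4 fell with Sox17beta in the blocked fit, where 3.56% of all probe sets did, and 0 rose, where 1.88% did. Without the block 0 were called in either direction. Blocked fits without 1 array kept calls among the 166 only without Sox17beta replicate 1. Without any other array they called few or none over all probe sets, too. The median difference of the 166 genes was -0.02. All 4 were filed in the list of sensors and regulators of the unfolded protein response, of which 11 genes were measured, and 2 of the 4 are the copies of herpud1, which is a target of that response and serves degradation. The list did not fall as a whole. Its median was -0.04 with Sox17beta, with 6 genes lower and 5 higher. With Mixer its median was -0.08, with 8 lower and 3 higher. Of all probe sets 40.4% and 43.2% were lower in these comparisons. creb3l2.L, a membrane-bound transcription factor of the ER, had 6.83 and 6.57 in Sox17beta caps, 7.23 and 7.30 in Mixer caps, and 7.73 and 7.97 in uninjected caps. The 3 groups did not overlap, and the difference was -1.15 with Sox17beta (limma adjusted p = 0.00716 with the block and 0.183 without it) and -0.585 with Mixer (blocked limma adjusted p = 0.13).

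herpud1 encodes an ER membrane protein that serves degradation of misfolded proteins and is induced by ER stress. herpud1.L had 4.74 and 5.26 in Sox17beta caps, 4.94 and 5.81 in Mixer caps, and 5.86 and 6.72 in uninjected caps. herpud1.S had 5.37 and 5.80 in Sox17beta caps, 5.58 and 6.51 in Mixer caps, and 6.20 and 7.35 in uninjected caps. For each copy the order within a replicate number was Sox17beta lowest and uninjected highest, and both Sox17beta arrays were under the brightest absent-transcript control, so the size of the difference is poorly bounded. It was -1.29 for herpud1.L and -1.19 for herpud1.S with Sox17beta (blocked limma adjusted p = 0.0044 and 0.0123). With Mixer herpud1.L fell by 0.915 in the blocked fit (limma adjusted p = 0.0302), and herpud1.S differed by -0.73 (blocked limma adjusted p = 0.127). Both Mixer values of herpud1.L, and its first uninjected value, were also under the brightest control of their arrays. The size of its Mixer difference is thus poorly bounded too.

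ppp1r15b.L, which directs a phosphatase to the translation factor eIF2 alpha, had 8.05 and 7.65 in Sox17beta caps, 7.98 and 7.79 in Mixer caps, and 8.51 and 8.32 in uninjected caps. Both injected groups lay below the uninjected values, and the Sox17beta difference of -0.565 passed in the blocked fit (limma adjusted p = 0.0375) where the Mixer difference of -0.53 did not (limma adjusted p = 0.0958). The other 7 measured genes of this list did not pass. One of them, cebpb.L, a transcription factor picked out here after its values were seen, had 4.72 and 6.54 in Sox17beta caps, 4.20 and 3.97 in Mixer caps, and 4.0 and 3.97 in uninjected caps. Its difference of 1.645 (blocked limma adjusted p = 0.0998) was 0.72 in the first pair and 2.57 in the second, and only Sox17beta replicate 2 exceeded the brightest absent-transcript control of its array, so the size of the difference is poorly bounded.

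**Figure D4:**
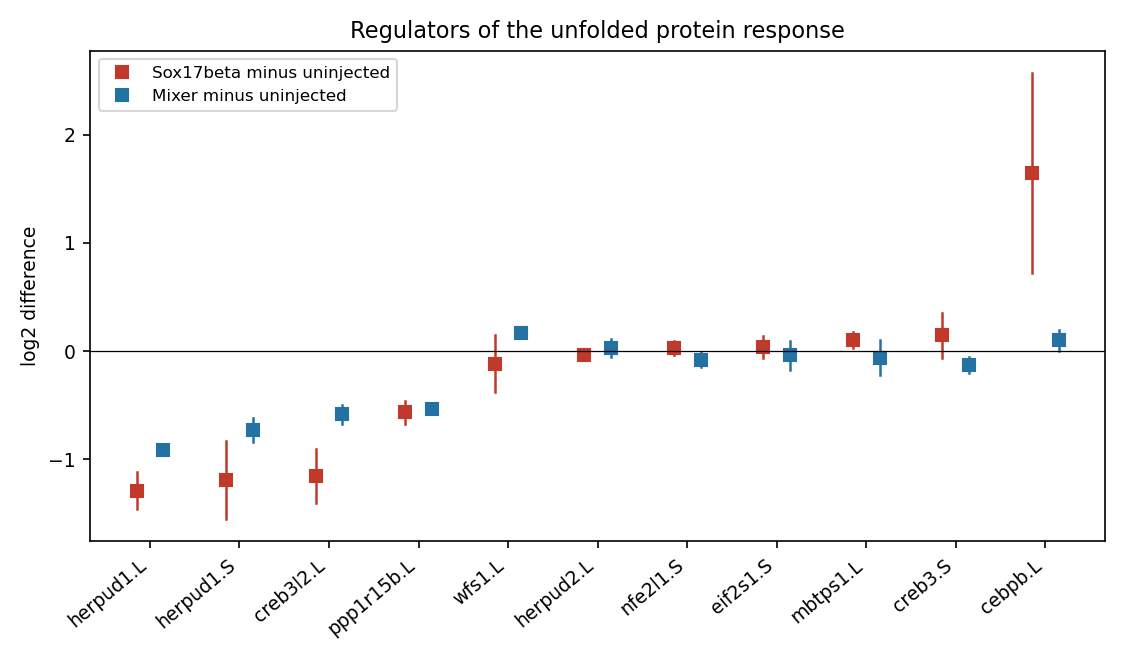
Log2 difference for the 11 measured genes filed as sensors and regulators of the unfolded protein response, Sox17beta minus uninjected (red) and Mixer minus uninjected (blue). The 2 herpud1 copies among them are targets of that response. Squares are the mean of the 2 replicate pairs and lines join the values of the pairs. The herpud1 copies, creb3l2.L and ppp1r15b.L are below 0 in both pairs for both factors, and cebpb.L is above 0 with Sox17beta over a wide span.

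None of the other 6 lists held a called gene in any of the 3 comparisons, with or without the block. Their Sox17beta medians were 0.06 for 18 genes of ER-associated degradation, -0.06 for 30 other folding proteins, -0.01 for 31 genes of N-glycosylation, -0.02 for 21 other targeting and insertion genes, -0.055 for 25 other COPII transport genes and -0.06 for 30 COPI and Golgi genes. The gene with the smallest p in each of these lists differed with Sox17beta by -0.395 for selenos.L of degradation, 0.475 for fkbp7.L of folding and -0.505 for dpm2.L of glycosylation. For tram1.S of insertion, yif1b.L of COPII transport and arf4.S of the Golgi, the differences with Mixer were -0.36, 0.505 and -0.54.

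Genes that mark cell types in and around the cap also differed between the groups, most of all those of the epidermis. Of 14 measured epidermal genes, 12 fell with Sox17beta in the blocked fit, where 3.56% of all probe sets did, with a median difference of -2.03, and 1 fell with Mixer, where 0.775% did. Without the block 0 of the 14 were called with either factor. Their mean level was 6.84 and 6.38 on the Sox17beta arrays, 7.04 and 8.02 on the Mixer arrays, and 8.19 and 9.03 on the uninjected arrays. Of these 14, 6 were below the absent-transcript control on both Sox17beta arrays, 2 on both Mixer arrays and 1 on both uninjected arrays.

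Genes of mucus-secreting goblet cells and the cement gland were mostly not called. Of the 7 measured, 1 fell with Sox17beta in the blocked fit, where 3.56% of all probe sets did. With Mixer 1 rose, where 0.536% did. The medians were -0.005 with Sox17beta and 0.13 with Mixer. Their mean level was 5.67 and 5.37 in Sox17beta caps, 6.50 and 7.0 in Mixer caps, and 6.02 and 6.24 in uninjected caps, and 5, 2 and 4 of them were below the control on both arrays of those groups. The one that rose with Mixer was itln1.L, which encodes a secreted lectin, by 3.65. The one that fell with Sox17beta was ag1.L, at -2.84 (blocked limma adjusted p = 0.00462). Its other copy, ag1.S, differed by -1.565 and was not called (blocked limma adjusted p = 0.0839). In this list 4 genes were lower and 3 higher with Sox17beta, where 40.4% and 58.6% of all probe sets were. Of 7 genes of multiciliated cells and ionocytes, 2 fell with Sox17beta in the blocked fit, where 3.56% of all probe sets did. With Mixer 0 were called, where 1.31% were.

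Endodermal genes were measured by 19 probe sets, 3 of which read mixer and sox17b.1 and so may count injected RNA. The other 16 averaged 5.505 and 5.64 in Sox17beta caps, 6.08 and 6.69 in Mixer caps, and 4.84 and 4.92 in uninjected caps. Of all 19, 12 were below the absent-transcript control on both Sox17beta arrays, 6 on both Mixer arrays and 14 on both uninjected arrays. The sizes of many of these differences are thus poorly bounded. In the blocked fit 4 of the 16 rose with Sox17beta and 6 with Mixer, where 1.88% and 0.536% of all probe sets did. Without the block 0 and 2 did, where 0.0194% and 0.0387% were called. With the block, of 9 mesodermal genes 3 rose with Sox17beta and 2 with Mixer, beside the same 1.88% and 0.536%. Of 10 neural plate genes 2 rose and 1 fell with Sox17beta in that fit, where 1.88% and 3.56% of all probe sets did. With Mixer 0 were called, where 1.31% were. Without the block 0 genes of the goblet, multiciliated, mesodermal and neural lists were called with either factor. Of the 9 mesodermal genes 5, 6 and 7 were below the control on both arrays of Sox17beta, Mixer and uninjected caps. Of the 10 neural plate genes 4, 4 and 5 were. The part of these marker differences in the xbp1, herpud1 and creb3l2 values was not tested.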

How the data were processed

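The deposited values were log2 expression values per probe set, which the authors summarised by RMA, as the submitters' processing notes name it. This method corrects background, equalises the distributions of arrays and summarises probes. Its version and whether all arrays were summarised together was not given in the sources used here. Columns of other series numbered 0.

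The tables hold 15611 probe sets, of which 120 are controls, and the other 15491 were tested. Names came from the platform's annotation, which gave 9304 of them 1 symbol, 195 several and 5992 none, and 9227 matched a RefSeq table by gene identifier. The 72 genes had 93 probe sets, and 58 genes had 1 each. No coordinates or promoter sequences are given, and promoter motifs were not analysed here.

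All 6 arrays entered 1 fit of group means (lmFit and eBayes, limma 3.58.1, R 4.3.3), with two-sided tests and Benjamini-Hochberg adjustment over all tested probe sets per comparison at 0.05. Figures used matplotlib 3.10.9. The fit had 3 residual degrees of freedom, or 2 with the replicate number as a block. The fit without the block was planned as the main one, with the block as an alternative. Replicate numbers from the labels were taken to pair arrays, since deviations from group means correlated at 0.732 (Sox17beta with uninjected), 0.867 (Mixer with uninjected) and 0.776 (Sox17beta with Mixer). The fits were also run on simulated data that held a shift shared by arrays of one replicate number. Such data cannot show whether the replicate numbers mark real pairs.

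The members and lists were chosen with earlier results of these data known. The rule for named genes took every copy of xbp1, hspa5, calr and canx, members called with or without the block, per role the 2 largest differences among groups that did not overlap with each factor, and per further list up to 4 called genes or the gene with the smallest p. Other members were named after their values were seen. Beside the replicate block, the alternatives were quantile normalization, median centring, a filter at the 25th percentile of level and an intensity trend in eBayes. Fitting 2 groups only, averaging a gene's probe sets, and leaving out each array were further ones.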

Additional observations from a re-analysis of the deposited data

How the results depend on the processing

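The log2 differences are the same with and without the replicate block, and the block decided the calls among the 72 genes, the 166 further genes and the epidermal markers (12 of 14 with Sox17beta against 0 without it). With the replicate block limma called 3 of the 72 genes for Sox17beta minus uninjected, 1 for Mixer minus uninjected and 3 for Sox17beta minus Mixer. Of the 166 further genes it called 4, 1 and 0. Without the block it called 0 of either set in each comparison. Over all probe sets the shares called were 5.45%, 1.31% and 1.56% with the block, and 0.0194%, 0.0387% and 0.0581% without it. xbp1.L, listed with its low level known, passed with the block for Sox17beta minus uninjected (-2.11, limma adjusted p = 0.00922). Leaving out 1 array at a time, the blocked fits kept calls among the 72 genes only without Sox17beta replicate 1. For Mixer minus uninjected they kept no call among the 72 or the further genes. Over all probe sets, too, they called few or none for Sox17beta minus uninjected without any other single array. The loss of calls was thus not particular to these genes. With an intensity trend and the block, 1 further gene was called for Sox17beta minus Mixer. Without 1 array the median of the 72 genes ran from -0.19 to 0.015 for Sox17beta minus uninjected, with the value above 0 when uninjected replicate 2 was left out, from -0.14 to 0.06 for Mixer minus uninjected and from -0.1675 to 0.0525 for Sox17beta minus Mixer. With the block these ranges were -0.155 to -0.05, -0.05 to 0.0075 and -0.095 to -0.04. After quantile normalization the Mixer median was -0.00042, with and without the block. The xbp1.L difference ran from -2.71 to -1.51 with Sox17beta and from -0.61 to 0.04 with Mixer. The blocked versions of normalization, filter, probe set averaging and trend were chosen after seeing the data. With 2 arrays a group, precision is limited, and members under the absent-transcript control have poorly measured differences.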
